A study of Mus musculus with 2 samples.

Results

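Alternative start sites inside genes were examined for open chromatin in mouse calf muscle. An inner start site was the start of a protein-coding transcript (GENCODE M21, mm10) at least 5 kb downstream of the 5′-most start of its own gene and over 5 kb from the 5′-most start of every other protein-coding gene. By this rule 9656 of 54361 protein-coding start sites were inner sites, and they lay in 4818 of 21853 protein-coding genes. The rule used positions only and no measured value. The median inner site lay 27.2 kb downstream of the 5′-most start, and 2813 genes had 1 inner site while the most in a gene was 28. Sites of a gene within 500 bp of each other formed 7622 groups.

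DNase-seq reads out accessible DNA from the cuts that DNase I makes in nuclei, and it was done on gastrocnemius tissue of male adult B6CASTF1/J mice aged 18 to 20 months, an F1 hybrid in which both alleles were read against 1 reference genome and were not separated. The only group held 2 samples labelled as biological replicates, with no other genotype, treatment, age or control. The donor label is shared by both samples while their biosample labels differ, so the SDs below (n = 2) measure only how far these 2 samples lie apart, and that distance may be technical. No test over samples was possible with 1 group, and no p-value is given.

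Many genes carry several promoters, and the choice of promoter sets the first exon of the transcript and often the N terminus of the protein. An active start site usually lies at the downstream edge of a stretch of DNA from which nucleosomes are displaced, and DNase I cuts there. Muscle uses this in known cases: Myl1 makes its long and short myosin light chains from separate promoters, and Ank1 and Camk2a each make a small muscle protein from a promoter deep inside the gene.

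The bases before 7 inner starts, all with a peak in both replicates, are shown because these starts carry the muscle and signalling results below, and the 5′-most start of Myl1 is added as the partner of its inner start. They were read from the RefSeq genome GRCm38.p6 (mm10), 5′ to 3′ on the strand of the gene, up to 200 bases that end just before the start and stop short of any exon of a coding transcript. Capitals mark matches on either strand to GGGCGG (the GC box), CAGCTG (the E-box bound by MyoD), TGANTCA (the AP-1 motif), CACGTG (the general E-box), the TATA box TATAAA or the MEF2 consensus.
Myl1 inner start (Myl1-202), chr1:66935355-66935490, minus strand: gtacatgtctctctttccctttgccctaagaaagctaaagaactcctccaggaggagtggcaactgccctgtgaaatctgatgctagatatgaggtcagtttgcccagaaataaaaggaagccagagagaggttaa
Myl1 5′-most start, chr1:66945385-66945584, minus strand: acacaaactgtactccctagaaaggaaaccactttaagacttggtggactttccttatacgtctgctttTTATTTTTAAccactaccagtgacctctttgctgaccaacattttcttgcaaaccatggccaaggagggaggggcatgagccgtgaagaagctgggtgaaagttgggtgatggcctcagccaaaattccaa
Tpm3 inner start (Tpm3-201), chr3:90079340-90079539, plus strand: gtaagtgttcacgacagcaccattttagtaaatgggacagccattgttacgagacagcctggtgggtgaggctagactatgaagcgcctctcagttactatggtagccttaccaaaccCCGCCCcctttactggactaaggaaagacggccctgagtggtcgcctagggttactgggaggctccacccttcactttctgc
Ank1 inner start (Ank1-208), chr8:23138830-23139029, plus strand: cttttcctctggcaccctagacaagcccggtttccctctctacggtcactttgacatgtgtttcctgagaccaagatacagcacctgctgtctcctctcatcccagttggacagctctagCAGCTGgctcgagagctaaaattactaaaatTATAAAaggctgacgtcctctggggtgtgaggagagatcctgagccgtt
Neb inner start (Neb-203), chr2:52335135-52335334, minus strand: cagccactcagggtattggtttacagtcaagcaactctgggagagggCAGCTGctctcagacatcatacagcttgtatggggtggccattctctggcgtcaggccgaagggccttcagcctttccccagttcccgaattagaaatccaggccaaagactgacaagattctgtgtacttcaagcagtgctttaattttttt
Rcan1 inner start (Rcan1-201), chr16:92400078-92400277, minus strand: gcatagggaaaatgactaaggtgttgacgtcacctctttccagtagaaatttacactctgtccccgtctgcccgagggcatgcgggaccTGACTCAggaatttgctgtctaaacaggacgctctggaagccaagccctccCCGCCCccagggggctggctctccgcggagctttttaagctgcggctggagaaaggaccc
Pfkm inner start (Pfkm-201), chr15:98108266-98108465, plus strand: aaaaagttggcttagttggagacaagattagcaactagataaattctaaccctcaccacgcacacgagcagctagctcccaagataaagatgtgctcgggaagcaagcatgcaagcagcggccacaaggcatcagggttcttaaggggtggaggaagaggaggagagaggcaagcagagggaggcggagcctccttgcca
Dgkz inner start (Dgkz-201), chr2:91963658-91963857, minus strand: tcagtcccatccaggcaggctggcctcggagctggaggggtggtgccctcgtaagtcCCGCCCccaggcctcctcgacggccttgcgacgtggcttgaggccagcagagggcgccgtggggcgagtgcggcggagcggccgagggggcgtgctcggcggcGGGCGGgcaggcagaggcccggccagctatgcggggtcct
The 136 bases before the inner Myl1 start, which gives a myosin light chain of 150 residues, held none of these motifs, while a MEF2 match began 131 bases before the 5′-most start. In Ank1 a CAGCTG began 80 and a TATAAA 49 bases before the start, and in Neb a CAGCTG began 153 bases before it. GC boxes began 82 bases before the Tpm3 start, 60 before that of Rcan1 and 143 and 40 before that of Dgkz. In Rcan1 a TGANTCA match began 111 bases before the start. In Pfkm none of the motifs was found in the 200 bases.

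The larger deposited peak lists, used throughout, held 131398 peaks in replicate 1 and 91567 in replicate 2, with a median width of 200 bp in both. A start site is called open where at least 1 peak overlapped the 500 bp on either side, and its signal is that of the strongest such peak, in the authors' unit, given for replicate 1 and then replicate 2. Of 10 skeletal muscle markers all 10 had an open start in both replicates, with signals between 2.06 and 5.75 in replicate 1 and between 1.27 and 4.94 in replicate 2. Markers of other cells, given here in part, were present too, so the values are for whole tissue: 4 of 4 endothelial genes were open (0.437 to 1.02 and 0.755 to 1.05), as were 4 of 4 fibro-adipogenic genes (0.812 to 2.87 and 0.872 to 3.52). Of the macrophage genes Adgre1 and Cd68 were open in both, at most at 0.731 and 0.906, and the cardiac gene Tnni3 in replicate 1 only, at 0.695. The macrophage genes Csf1r and Ptprc, the satellite cell genes Pax7 and Myf5, the cardiac genes Myh6 and Nppa, and all 3 liver and 3 neuronal genes had no peak in either replicate. In such tissue a site open in few cells and a site weakly open in most cells cannot be told apart.

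Inner start sites were open less often than the 5′-most starts of the same genes. Of the 9656 inner sites 30.3% were open in replicate 1 and 27.3% in replicate 2, which averages 28.8% ± 2.11 (SD, n = 2). The 5′-most starts of the 4818 genes were open in 66.2% and 64.4%, a mean of 65.3% ± 1.29 (SD, n = 2). The gap was many times the spread between the replicates. Over all 54327 distinct protein-coding start positions the background was 58.9% in replicate 1, 57.0% in replicate 2 and 55.6% in both. Points 2500 bp to either side of inner sites, over 1 kb from any annotated start, were open in 8.32% and 5.75%, and in 5.0% in both, so inner sites as a whole stood between neighbouring gene-body DNA and first promoters.

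The replicates mostly called the same inner sites. In all 2514 inner sites (26.0%) were open in both replicates, 407 only in replicate 1, 119 only in replicate 2, and 6616 (68.5%) in neither. Inner sites open in only 1 replicate had weak peaks, with a median signal of 0.386 in replicate 1 and 0.403 in replicate 2. The median of inner sites open in both was 1.62 and 1.56. The excess in replicate 1 goes with its longer peak list.

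How complete an annotated transcript was at its 5′ end divided the inner sites. The annotation marks 3059 of them (31.7%) as starts of transcripts whose 5′ end is incomplete, and 2588 of these lay inside a coding exon. Of the 6597 inner sites with a complete 5′ end 40.4% and 37.0% were open, a mean of 38.7% ± 2.43 (SD, n = 2). Of the incomplete ones 8.34% and 6.34% were open, 7.34% ± 1.41 (SD, n = 2). Points 2500 bp from inner sites were open in 8.32% and 5.75%, but they flank complete and incomplete sites alike. The base 2500 bp before the start lay under a peak at 1.21% and 0.752% of incomplete sites and at 2.26% and 1.71% of complete ones. At 50 bp before the start incomplete sites had 2.71% and 2.09%, so a small maximum at the start remained. An annotated start of an incomplete transcript need not be a true start. The counts below include these sites wherever complete inner sites are not named.

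**Figure D1:**
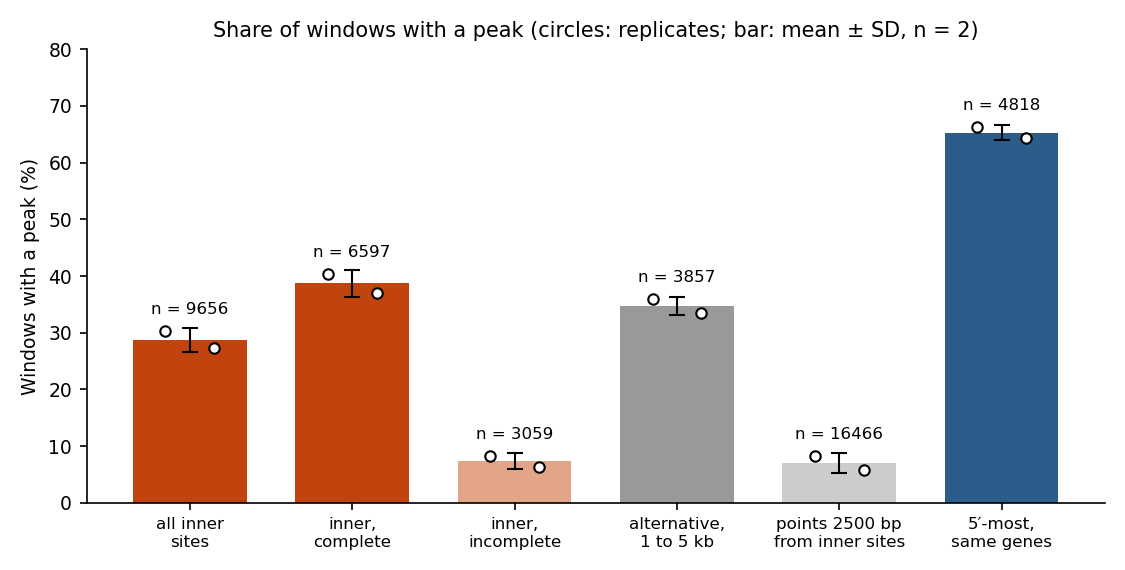
Share of windows (%) with at least 1 peak within 500 bp, for inner sites by 5′ completeness, alternative starts 1 to 5 kb downstream, points 2500 bp from inner sites and the 5′-most starts of the same genes; circles are replicates 1 and 2 from left to right, bars the mean, whiskers the SD (n = 2). Complete inner sites (38.7%) stand well above incomplete ones (7.34%) and below 5′-most starts (65.3%).

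Peaks at inner sites sat where those of first promoters sit. At bases read every 50 bp, the share of sites with a peak was highest 50 bp before the start in each class. At that base it was 26.5% and 24.3% for complete inner sites, 2.71% and 2.09% for incomplete inner sites, and 49.9% and 48.1% for 5′-most starts. In replicate 2 incomplete inner sites had the same 2.09% at the start itself. Around complete inner sites and 5′-most starts the peak was narrow, with a lower shoulder on the downstream side.

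**Figure D2:**
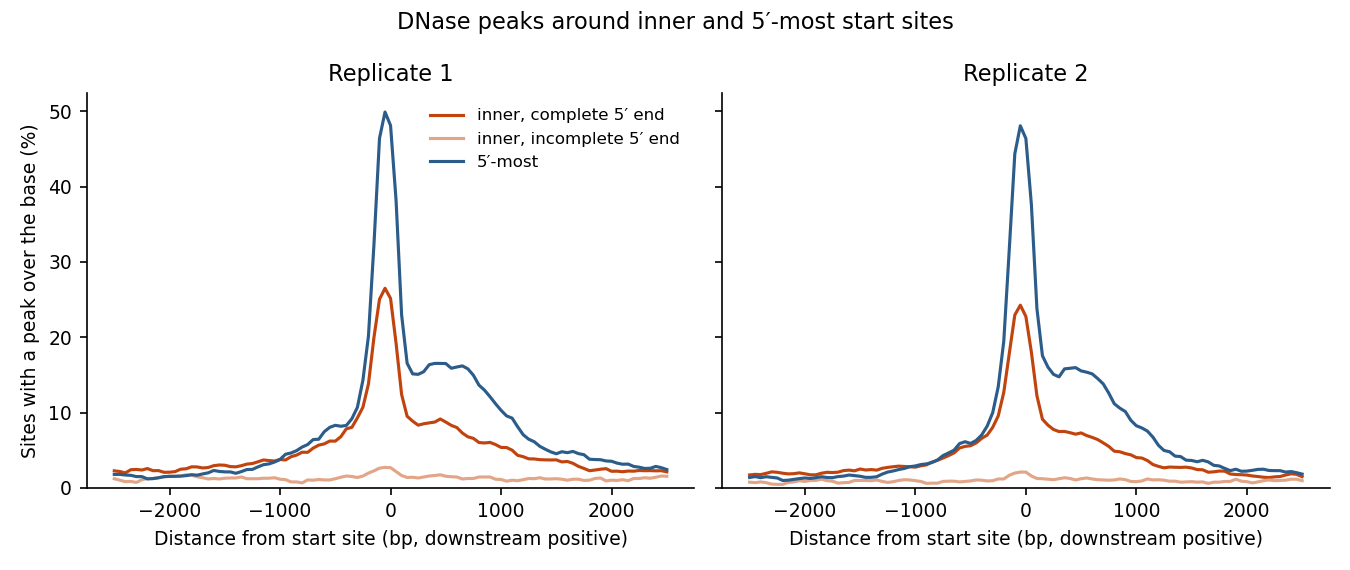
Share of sites (%) with a peak over each base from 2500 bp before to 2500 bp after the start, in 1 panel per replicate, for complete and incomplete inner sites and for 5′-most starts. The maximum lies 50 bp before the start, at 26.5% and 24.3% for complete inner sites and at 49.9% and 48.1% for 5′-most starts.

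Distance inside the gene made little difference. Complete inner sites 5 to 10 kb downstream were open in both replicates in 33.9%, those 100 to 200 kb downstream in 40.5% and those 200 kb or more downstream in 32.2%. At the distance limit of the rule, 33.2% and 31.4% of the 488 inner sites 5 to 6 kb downstream were open, and 27.7% and 26.3% of the 624 starts 4 to 5 kb downstream, just outside it. Alternative starts 1 to 5 kb downstream, which the rule leaves out, were open in 35.9% and 33.5%.

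CpG content divided the inner sites far more than distance. CpG observed over expected, in the 300 bp around the start, is the number of CpG dinucleotides over that expected from the C and G content. Of complete inner sites with a value under 0.2, 16.3% and 13.5% were open. The share was 28.6% and 24.4% from 0.2 to 0.4, 45.6% and 39.6% from 0.4 to 0.6, and 76.1% and 73.8% from 0.6 to 0.8. At 0.8 or more it was 90.9% and 90.5%. The order of the 5 classes was the same in both replicates, and the steps between neighbouring classes exceeded the spread between replicates.

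**Figure D3:**
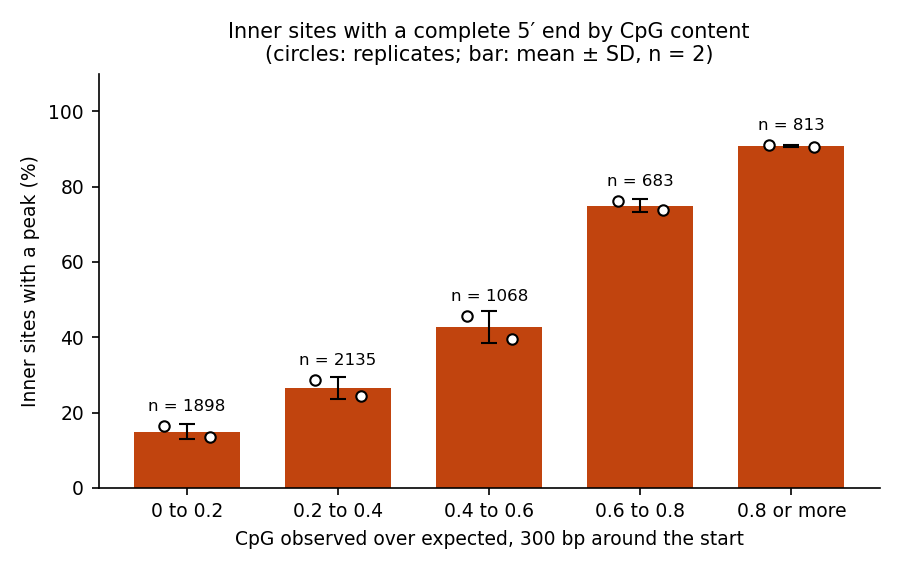
Share (%) of the 6597 complete inner sites with a peak, by CpG observed over expected in the 300 bp around the start; circles are replicates 1 and 2 from left to right, bars the mean, whiskers the SD (n = 2). The highest class holds 90.9% and 90.5% open sites and the lowest 16.3% and 13.5%.

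Open inner sites, here the complete ones, were still less CpG-rich than open first promoters. The median CpG observed over expected was 0.619 at complete inner sites open in both replicates, 0.239 at those closed in both and 0.833 at open 5′-most starts. Median GC content was 60.7%, 47.7% and 66.5% in the same order. Footprints, the short stretches that the authors called as protected from cutting, numbered a median of 5 and 4 per window at open inner sites, against 6 and 6 at open 5′-most starts. Bases past a false discovery rate of 0.05 covered a median of 618 and 572 of the 1001 bases of an open inner window, against 818 and 753.5 at open 5′-most starts. Peaks, footprints and these intervals come from the same reads, so they are not independent of each other.

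Short motifs were counted from 250 bases before to 50 after each start, on both strands, and the inner sites here are the complete ones. TATAAA was the exception and was sought only on the strand of the gene, at the positions given below. GGGCGG was present at 50.5% of open and 10.5% of closed complete inner sites, against 66.9% of open 5′-most starts and 43.8% of the 5′-most starts of all genes. CAGCTG was present at 21.7% of open and 17.3% of closed inner sites, against 15.3% of open 5′-most starts and 15.6% of all. For the MEF2 consensus the shares were 1.92% at open and 4.25% at closed inner sites, against 1.71% and 2.86%. TATAAA beginning 40 to 20 bases before the start was rare, at 0.769% of open and 1.41% of closed inner sites, against 0.231% and 2.40%. CACGTG was at 6.58% and 4.46%, against 10.6% and 7.72%, and TGANTCA at 7.26% and 9.81%, against 3.75% and 6.74%. These motifs differ in base composition and the classes in GC content, and the part of GC content in these shares was not tested.

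Other annotation at the site moved with openness. Complete inner sites within 500 bp of the start of a noncoding gene (269 sites) were open in both replicates in 64.3%, and the other 6328 in 34.2%. Sites inside a coding exon were open in both in 14.4% when complete and 5.33% when incomplete. Complete inner sites whose transcripts share the start codon of the 5′-most transcript were open in both in 30.3%. Complete sites with another start codon were open in both in 40.1%. Coding lengths could be compared at 2332 complete inner sites open in both replicates. Their transcripts coded for a shorter protein than the 5′-most transcript in 46.9%, an equal one in 10.8% and a longer one in 42.3%. At 3813 complete inner sites closed in both replicates these shares were 50.04%, 22.7% and 27.2%.

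Open inner sites were sorted by whether the 5′-most start of their gene was open. Of the 2514 inner sites open in both replicates, 1426 had a 5′-most start open in both, 941 had one open in neither, and 147 had one open in 1 replicate. Of these, 1305, 902 and 133 had a complete 5′ end. By gene, 398 of 4818 genes (8.26%) were open at an inner site and closed at the 5′-most start in both replicates, 712 were open at both ends, 2142 only at the 5′-most start and 1084 at neither. In 26 of the 398 another annotated start within 5 kb of the 5′-most one was open. The 5′-most start was closed in both replicates in 1562 of all 4818 genes (32.4%). Of the 1184 genes with an inner site open in both replicates it was closed in 398, so at about the same rate. The 941 inner-only sites are 9.75% of inner sites, and the same pattern held for 12.5% of alternative starts 1 to 5 kb downstream. At these 941 sites the median CpG observed over expected was 0.712, against 0.502 at inner sites open together with the 5′-most start. Of the 941 sites 331 (35.2%) gave a transcript that the annotation ranks as principal, against 365 (25.6%) of those open at both ends. Of the 3832 complete inner sites closed in both replicates 1333 gave one. Complete inner sites with this rank were open in both in 33.8% and those without it in 36.3%, so the rank did not go with openness as such. Several transcripts of a gene can carry this rank. Whether the 5′-most transcript carries it too was not tested, so these shares do not show which start gives the main transcript.

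The 10 genes with the highest inner signal and a closed 5′-most start in both replicates reached signals between 9.78 and 15.2. Glo1, whose enzyme glyoxalase 1 detoxifies methylglyoxal, had inner signals of 14.3 and 15.2, at 14.2 kb from its 5′-most start. Por, the electron donor to cytochrome P450 enzymes, had 10.6 and 10.6, but another start near its 5′-most one was open. Kat6b, a histone acetyltransferase, had 11.02 and 11.5, and Tollip, an adaptor that restrains Toll-like receptor signalling, had 9.88 and 11.3. Tdrd7 had 10.1 and 11.8, Oser1 10.7 and 12.8, Iffo2 10.3 and 11.4, and Dcun1d4 10.3 and 10.7. Aktip had 10.2 and 10.8, with its inner start 65.5 kb inside the gene, and Tbc1d14, which acts in autophagy, 9.78 and 11.01.

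Where both ends were open, the 5′-most start was usually the stronger. Among the 1426 inner sites in 712 genes open at both ends in both replicates, the inner signal was higher in 39.1% and 37.2%, a mean of 38.1% ± 1.29 (SD, n = 2). The inner site was higher in both replicates in 499 sites (35.0%), the 5′-most start in 833, and the replicates differed in 94. Among the 661 alternative starts 1 to 5 kb downstream open at both ends, the alternative start was higher in both replicates in 34.5%, so the inner sites do not stand out in this. The median signal was 1.58 and 1.49 at the inner site and 2.54 and 2.51 at the 5′-most start. The median log2 ratio of inner over 5′-most signal was -0.54 and -0.56. The inner site was at least 2-fold higher in both replicates in 235 sites (16.5%) and the 5′-most start in 496 (34.8%). The log2 ratio of a site differed between replicates by a median of 0.29.

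**Figure D4:**
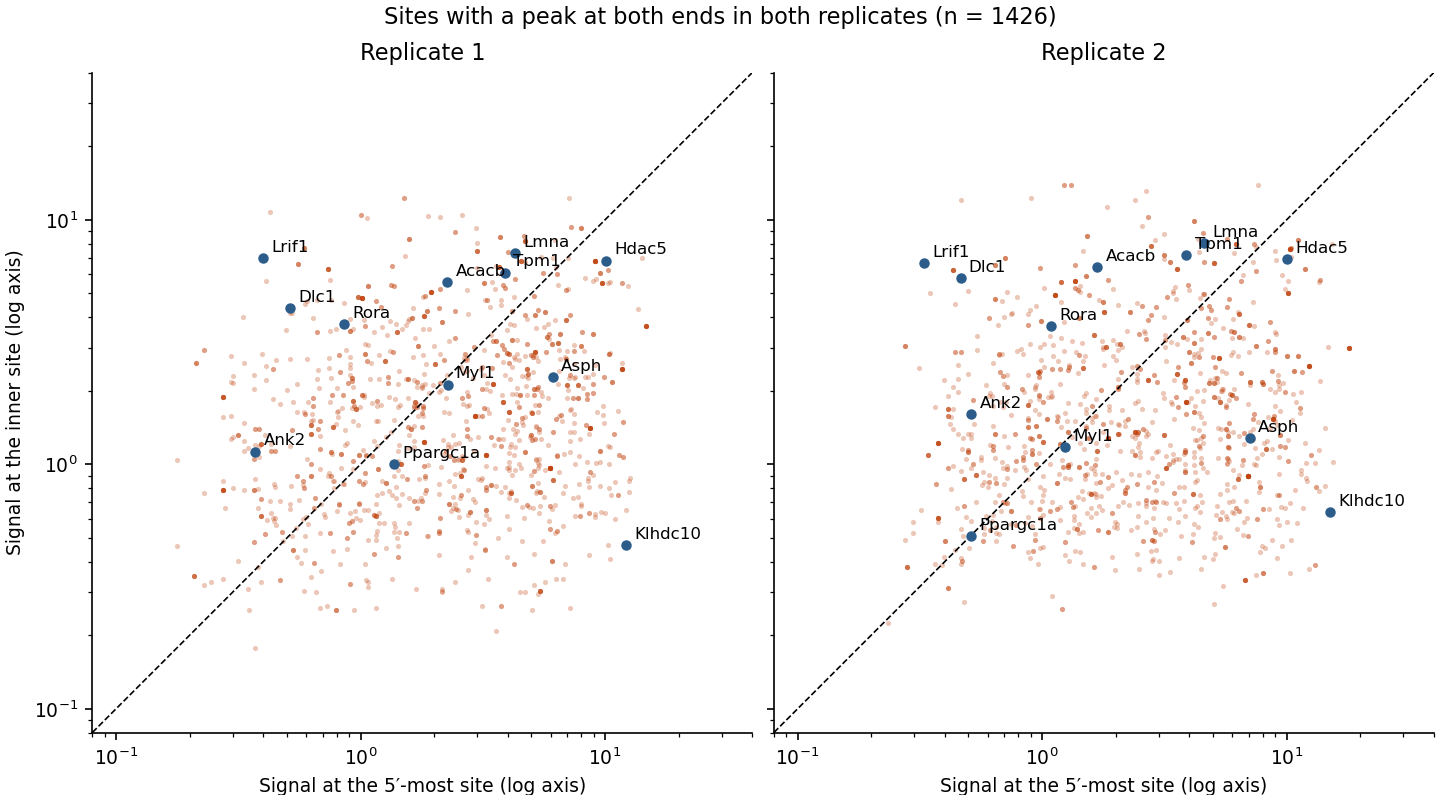
Signal at the inner site (vertical, log axis, authors' unit) against the 5′-most site (horizontal, log axis) for the 1426 inner sites with a peak at both ends in both replicates, in 1 panel per replicate; the dashed line marks equal signals and blue points genes named in the text. More points lie below the line than above it, with the inner site higher in 39.1% and 37.2%.

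The genes with the highest inner over 5′-most ratio, taking the lower of the replicates, had far weaker 5′-most starts. For Lrif1, with its inner start 36.9 kb downstream, the inner signals were 6.99 and 6.66, against 0.401 and 0.330 at the 5′-most start, a ratio of 17.4 and 20.2. Ndel1, which regulates the motor dynein, had 10.5 and 13.9, against 1.00 and 1.23. Pde4dip, which codes for myomegalin of the centrosome and Golgi, had 5.64 and 5.12, against 0.411 and 0.498, and Sema6d, a semaphorin, had 2.60 and 3.05, against 0.213 and 0.274. Srrm2 (splicing), Gnl2 (a nucleolar GTPase), Eci2 (fatty acid oxidation), Dlc1 (a GTPase-activating protein) and Cfap97 had ratios between 8.47 and 14.5. In 7 of these genes, all but Lrif1 and Sema6d, the inner start gave a principal transcript.

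At the other extreme the 5′-most start exceeded the open inner site by 15.2-fold to 26.1-fold. Klhdc10 had inner signals of 0.467 and 0.637, against 12.2 and 15.01 at the 5′-most start. Hip1, which acts in endocytosis, had 0.772 and 0.816, against 12.6 and 14.4, and Inpp5f, a phosphoinositide phosphatase, had 0.650 and 1.02, against 12.2 and 15.5. Clcn5, a chloride-proton exchanger, had 0.254 and 0.319, against 5.04 and 5.50, and Mpv17l had 0.305 and 0.335, against 5.41 and 6.76.

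Some genes held a series of open inner starts. Plec, which codes for the cytoskeletal linker plectin and is known for its many alternative first exons, had the most, with 9 inner sites in 6 groups open in both replicates, on 7 distinct peaks in replicate 1 and 6 in replicate 2. Their signals ran between 1.31 and 5.15 in replicate 1 and between 0.827 and 4.55 in replicate 2, and the 5′-most start had 2.74 and 2.45. The strongest peak lay between the starts of Plec-204 and Plec-217. It fell within 500 bp of Plec-217 in replicate 1 (5.15) and, as an overlapping peak, within 500 bp of Plec-204 in replicate 2 (4.55), so the order of these starts is not given. Pde4d, a cAMP phosphodiesterase, had 5 open groups between 462 kb and 1271 kb downstream of a closed 5′-most start, with the highest signal at Pde4d-207 (2.44 and 2.06). Tcf4, an E-protein partner of the MyoD family, had 5 open groups and a closed 5′-most start, with the highest signal 249.6 kb downstream (4.16 and 3.87), but another start near its 5′-most one was open. Dab2ip, a regulator of Ras, had 5, and the actin-binding gene Ablim1 had 4, as had Tbc1d14. In Ablim1 and in Tbc1d14 the 4 groups lay on only 3 distinct peaks in each replicate.

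Muscle structure genes on a list of 48 often had an open inner start. An inner site was present in 38, and in 24 of them (63.2%) an inner site was open in both replicates, against 24.6% of all 4818 genes. In 18 (47.4%) an inner site was higher than the 5′-most start in both replicates, against 14.8% of all. A 5′-most start with no peak counted as the lower end, so genes open only at an inner site are included in both shares. The median of the strongest open inner site was 2.20 and 1.67, against 1.67 and 1.57 over all genes with one. The 5′-most start of the 38 genes was open in both replicates in 73.7%, against 63.0% of all. A gene with more inner sites had more chances to count as open, and the part of this was not tested. The list was chosen with its alternative promoters and earlier results of these data known, so these shares are a description of the list. The same holds for the other lists below.

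Within it, 5 genes were open at an inner start and closed at the 5′-most start in both replicates, against 8.26% of all genes with an inner site. Tpm3, which codes for slow and cytoplasmic tropomyosins, had inner signals of 5.10 and 4.73 at the start of the 248-residue forms, against no peak in either replicate at the start of the 284-residue form. Camk2a, a calcium-dependent kinase gene whose inner promoter is known for the kinase-less anchoring protein αKAP of muscle, had 2.27 and 1.79 at starts of transcripts coding for 200 and 189 residues, against no peak at the start of the 478-residue kinase. Macf1, a linker of actin and microtubules, had 2.62 and 3.05 at an inner start 272 kb downstream, against no peak. Sgcd, which codes for δ-sarcoglycan of the dystrophin complex, had 1.56 and 1.46 at the start of its principal transcript 199 kb downstream, against no peak. Sorbs2, an actin adaptor, had 0.645 and 0.419 at its strongest inner start, against no peak.

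In the ankyrin and nebulin genes the inner start was the stronger end too. Ank1 had 2.21 and 1.44 at the innermost cluster of starts, 164 kb downstream, whose transcripts code for 155, 156 and 109 residues; a small ankyrin of this locus is known in the sarcoplasmic reticulum. The starts of its 1848-residue and similar long forms, 83 kb downstream, had 0.487 and 0.492, and the 5′-most start had 0.299 in replicate 1 and no peak in replicate 2. Ank2 had 1.13 and 1.60 at its highest inner site, against 0.371 and 0.514, and Ank3 had 1.89 and 1.22, against 0.274 and 0.375. Neb, the ruler of the thin filament, had 2.27 and 1.90 at Neb-203, which codes for 6909 residues, while the start of its principal transcript Neb-202 had no peak within 500 bp. Its 5′-most start, with a coding length of 269 residues, had no peak in replicate 1 and 0.453 in replicate 2.

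In other muscle genes both ends were open. Lmna, the nuclear lamina gene, had 7.33 and 8.03 at Lmna-202 and 5.71 and 6.70 at the principal Lmna-201, against 4.27 and 4.58 at the 5′-most start. Tpm1, the main striated tropomyosin gene, had 6.08 and 7.15 at the starts of forms of 245 to 251 residues, against 3.90 and 3.90 at the start of the 284-residue form. Both promoters of Myl1 were open at nearly the same level within each replicate, with 2.12 and 1.18 at the inner start and 2.27 and 1.24 at the 5′-most start. The kinase gene Speg had 2.50 and 2.07 at inner starts of 113-residue forms, against 3.15 and 2.04 at the start of the 3262-residue form. Dmd had 0.680 and 0.850 at Dmd-201, the start of a 617-residue form 2099.5 kb downstream, against 0.817 and 0.581 at the start of the 3678-residue dystrophin, so the order differed between replicates. Asph, whose locus also encodes the sarcoplasmic reticulum protein junctin, had 2.28 and 1.28 inside the gene, against 6.11 and 7.08, and the 5′-most start of Utrn (2.16 and 3.01) exceeded its strongest inner site (0.305 and 0.403).

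No inner site was open in either replicate in 12 muscle structure genes. Among them the 5′-most start was open in both replicates in Ttn (3.03 and 2.11), Cacna1s (2.10 and 1.68), Camk2d (2.55 and 2.91) and Pdlim5 (6.00 and 6.78). It was closed in Trdn, Nebl and Mylk, though in Trdn another start within 5 kb of the 5′-most one was open in both replicates. In Camk2g and Bin1 an inner site was open in replicate 1 only.

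**Figure D5:**
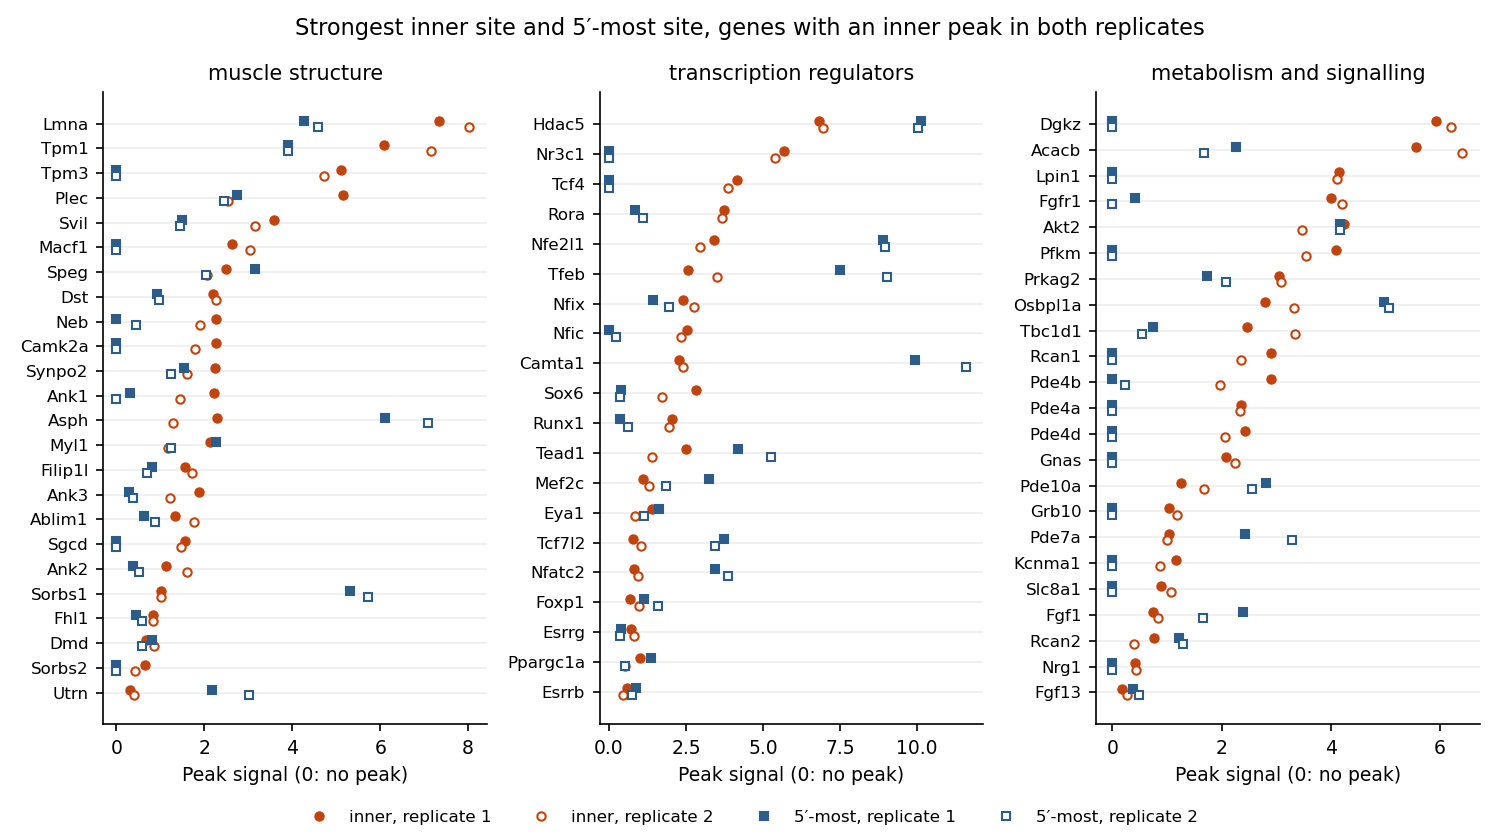
Peak signal (authors' unit, 0 where there is no peak) at the strongest inner site (circles) and the 5′-most start (squares) of each gene with an inner peak in both replicates, for 3 gene lists; filled symbols are replicate 1 and open symbols replicate 2. Tpm3, Nr3c1, Tcf4, Dgkz, Lpin1 and Pfkm have an open inner start and no peak at the 5′-most start.

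Among transcription regulators 32 of 46 genes had an inner site. In 20 (62.5%) at least 1 was open in both replicates, against 24.6% of all genes. Of these 20 genes 17 were open at both ends. The 5′-most start was open in both replicates in 87.5% of the 32, against 63.0% of all. In 8 of the 32 the inner site was higher in both replicates, against 14.8% of all. A 5′-most start with no peak again counted as the lower end, so inner-only genes are included. The median of the strongest open inner site was 2.34 and 1.84, against 1.67 and 1.57 over all genes with one. This list too was chosen with earlier results of these data known, so its shares describe the list. The 5′-most start was closed in both replicates in Nr3c1 and Tcf4, which is 2 of the 32, against 8.26% of all. Nr3c1, the glucocorticoid receptor, had inner signals of 5.67 and 5.40, 28.1 kb downstream. Other Nr3c1 starts, 28.7 to 30.1 kb downstream, had 2.65 in replicate 1 and 2.55 to 2.86 in replicate 2.

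Receptor and fibre-type genes varied in which end was stronger. Rora, the nuclear receptor RORα, had 3.74 and 3.67 at its principal start 636 kb downstream, against 0.858 and 1.09. Sox6, a repressor of slow-fibre genes, had 2.83 and 1.72, against 0.396 and 0.363, and Runx1 had 2.03 and 1.96, against 0.366 and 0.615. Esrrg, an oestrogen-related receptor of oxidative muscle, had 0.721 and 0.827, against 0.391 and 0.369. Ppargc1a, the coactivator PGC-1α, had 1.00 and 0.509 at the principal start of 797 residues, against 1.37 and 0.514 at the 5′-most start 13.8 kb upstream, so in replicate 2 the ends hardly differed. In others the 5′-most start was the stronger in both replicates. Hdac5, a deacetylase that represses MEF2 factors, had 6.81 and 6.93, against 10.1 and 10.01. Tead1, which binds M-CAT elements of muscle genes, had 2.51 and 1.40, against 4.17 and 5.26. Tfeb, a regulator of lysosomal genes, had 2.57 and 3.49, against 7.48 and 9.01, and Camta1 had 2.28 and 2.39, against 9.93 and 11.6. Mef2c, a MEF2 factor itself, had 1.10 and 1.29, against 3.25 and 1.87. No inner site was open in Mef2a, Hdac4, Foxo3, Thra, Thrb, Nfia, Bach2 or Nr3c2.

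Of the 4 lists, metabolic and signalling genes held the most inner-only cases. Of 54 genes 34 had an inner site, and in 23 (67.6%) at least 1 was open in both replicates, against 24.6% of all genes. In 11 of these the 5′-most start was closed in both, a pattern held by 8.26% of all. The inner site was higher in both replicates in 16 (47.1%), against 14.8% of all genes. Both shares include inner-only genes, here all 11. The median of the strongest open inner site was 2.44 and 2.24, against 1.67 and 1.57. The 5′-most start of the 34 genes was open in both replicates in 58.8%, against 63.0% of all. As earlier results were known when the list was chosen, these shares describe the list only. Pfkm, muscle phosphofructokinase of glycolysis, had 4.10 and 3.55 at an inner start that gives the same 780-residue protein, against no peak at the 5′-most start. Lpin1, a phosphatidate phosphatase, had 4.16 and 4.13, and Dgkz, a diacylglycerol kinase, 5.94 and 6.20, both against no peak. Rcan1, an inhibitor of calcineurin, had 2.90 and 2.36 at the start of the 198-residue form, against no peak at the 5′-most start, though another start within 5 kb of its 5′-most one was open. Gnas, the stimulatory G protein gene, had 2.08 and 2.24 at the starts of its 394-residue and similar forms, 45.7 to 46.0 kb downstream, against no peak at the 5′-most start. The remaining 6 cases were the phosphodiesterases Pde4a (2.37 and 2.34) and Pde4d (2.44 and 2.06), the insulin receptor adaptor Grb10 (1.04 and 1.19, with another start near its 5′-most one open), the potassium channel Kcnma1 (1.17 and 0.866), the sodium-calcium exchanger Slc8a1 (0.883 and 1.07) and neuregulin Nrg1 (0.421 and 0.425).

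Both ends were open in both replicates in 10 of the metabolic and signalling genes. Acacb, the mitochondrial acetyl-CoA carboxylase that restrains fat oxidation, had 5.57 and 6.41 at an inner start of a 146-residue form, against 2.26 and 1.68. Prkag2, a regulatory subunit of AMP-activated kinase, had 3.05 and 3.10 at 192 kb and 1.58 and 1.13 at 105 kb downstream, against 1.73 and 2.09. Tbc1d1, a Rab regulator of glucose uptake, had 2.47 and 3.34, against 0.741 and 0.542. Akt2, the insulin-responsive kinase, had 4.25 and 3.48, against 4.17 and 4.18, so the order differed between replicates. Beyond these 10, the 5′-most start was open in a single replicate in Pde4b and Fgfr1. Pde4b had 2.90 and 1.98 at Pde4b-203, 483 kb downstream, against no peak in replicate 1 and 0.235 in replicate 2. Fgfr1 had 4.0 and 4.22, against 0.411 in replicate 1 and no peak in replicate 2. No inner site was open in Pkm, Insr, Mcu, Prkca, Tbc1d4, Slc8a3 or Atp2b1.

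Genes chosen for other cell types gave a lower count. Of 21 genes 13 had an inner site, and in 4 (30.8%) at least 1 was open in both replicates, against 24.6% of all genes. The 5′-most start of the 13 genes was open in both replicates in 46.2%, against 63.0% of all. Col18a1, a basement membrane collagen, had 2.37 and 2.92, against 0.294 in replicate 1 and no peak in replicate 2. The neuronal adhesion gene Nrxn3 had a weaker inner peak (0.350 and 0.414), below the medians of 1.67 and 1.57 over all genes with an open inner site. Which cells of the tissue carried these peaks was not tested.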

How the data were processed

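DNase-seq was measured in 2 gastrocnemius samples of 1 group. Per the labels the samples are biological replicates 1 and 2, and each file belongs to 1 sample. The authors deposited, per sample, 2 peak lists, a list of intervals and a list of footprints on mm10, and per the deposited descriptions all were made per sample from filtered alignments and no samples were pooled. The signal in column 7 of the deposited peak lists is in the authors' own scale, set separately for each sample. In the deposited interval lists the p-value column is a false discovery rate below 0.05, and that of the deposited footprint lists is a constant 0.01, a threshold that was not used as a value. The caller, the aligner and their versions are not given in the sources used here. The files give no read counts, so the depth is unknown and no counting interval is given.

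Start sites were taken from GENCODE M21 with Python 3.11.15 and pandas 2.3.3, and sequence from RefSeq GRCm38.p6 with pysam 0.24.0. Of the peak lists the larger one of each sample was used. A site was open where a peak overlapped the 500 bp on either side, and ratios were formed only within a sample. The steps were tested on simulated data, with peaks planted at known starts. The members and the gene lists were chosen with earlier results of these data known. Genes were named by rule. Except for list members, the sites considered were those of basic transcripts with a complete 5′ end that are not read-through. Their genes had a symbol other than Gm numbers and Rik names. List members were not held to this, and their sites include incomplete ones. Named were the 10 highest inner signals (mean rank over replicates) with a closed 5′-most start, the 10 highest and 5 lowest inner over 5′-most ratios, the 5 genes with the most open groups, and members of 4 lists. The lists were muscle structure, transcription regulators, metabolism and signalling, and other cell types. For list members the strongest inner site is given unless another is named, and some of their other sites were named after their values were seen. Some genes that these rules and the marker lists select are not reported here. Alternatives changed the window, the peak list, the number of peaks, the distance limit, the transcripts, the unit and the replicates.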

Additional observations from a re-analysis of the deposited data

How the results depend on the processing

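The count of genes with an open inner start and a closed 5′-most start, 398, stayed within 1.5 times under all 11 alternatives, between 297 and 479. The count of inner sites open in both replicates, 2514, stayed within 1.5 times under 10 alternatives (1693 to 2921). It was 1484 when sites of a gene within 500 bp of each other were counted once, since neighbouring starts share a peak. The count of inner sites open at both ends, 1426, was 894 under the same counting and 915 with only basic transcripts that have a complete 5′ end, where fewer sites are tested, and between 1000 and 1813 under the other 9. The share with the higher signal at the inner site, 38.1%, was 36.5% with the smaller peak lists, 35.5% with the same number of top peaks in both samples, 39.7% with a distance limit of 10 kb and 43.1% with only basic, complete transcripts. For these the cause was not tested. Under the other 8 alternatives it lay between 37.2% and 38.7%. Without replicate 1 or replicate 2 the sites open in the remaining replicate numbered 2633 and 2921, the inner-only genes 478 and 479, the sites open at both ends 1526 and 1813, and the share was 38.0% and 37.3%. No paired analysis was possible because only 1 group exists. Depth is not given in the files, so a site with no peak may be open below what the authors' threshold detects, and the shorter list of replicate 2 bounds every count of sites open in both.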
